A study of Homo sapiens with 4 samples.

Results

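The genes described here build and control the mitotic spindle, the kinetochores and the cleavage furrow: 50 genes were listed by their role in mitosis, and 48 of them had a value, out of 22395 genes named on the array. Each gene is represented by its probe set of highest mean signal, and for every measured gene here this was the only probe set that carried its symbol alone. BUB1B, a checkpoint kinase of the kinetochore, had no probe set under its symbol here, and CENPA, the centromeric histone, is named only together with SLC35F6, so neither has a value. The RNA came from Huh7, an established human line from a hepatocellular carcinoma, transfected with the plasmid pcFLAG (control, 2 arrays) or with pcFLAG-hSTYK1, which carries human STYK1, a kinase also called NOK (STYK1, 2 arrays). Transfection and the FLAG plasmid were thus common to both groups. The time after transfection, the dose of plasmid and whether the 2 samples of a group were separate cultures are not stated in the labels, so a p-value here reflects the spread between these samples alone, which could be technical. The question is whether transcripts of the mitotic apparatus differ when STYK1 is overexpressed.

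Values are log2 signals as the authors deposited them, and every difference is a log2 difference, STYK1 mean minus control mean, unless another is named. Signals at or below a floor of 0.726 to 0.780, depending on the array, were treated as background; it is the level that 95% of 432 probe sets for olfactory receptors stay under. STYK1 itself read 0.26 and 0.61 in the controls, both under the floor, and 7.40 and 7.86 in the STYK1 arrays, at least 118-fold higher (limma, adjusted p = 0.0373), a call lost when any single array was left out, with adjusted p-values of 0.347 to 0.724. All 13 measured of 15 hepatocyte genes lay above the floor on all 4 arrays, whereas 0 of 15 measured endothelial, immune and fibroblast markers did. Of these markers CLEC4M, CSF1R and COL1A1 lay above it on 3 arrays and PDGFRB on 2, with a highest signal of 0.98, for CLEC4M. All 48 mitotic genes lay above the floor on all 4 arrays, with signals from 1.08 for NUF2 to 7.49 for TOP2A, so each could be read in both groups.

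In mitosis the kinetochore, a protein layer on the centromere, holds the chromosome to spindle microtubules, and the spindle checkpoint keeps the ubiquitin ligase APC/C inactive until every chromosome is attached. Kinesin motors shape the spindle, condensin compacts the chromosomes, and the central spindle then places the furrow that splits the cell. Most of these genes are transcribed in the G2 phase and in mitosis, and many promoters of the class carry a CHR, a short element bound by LIN54, a subunit of the DREAM and MYBL2 complexes, together with CCAAT boxes bound by NF-Y. In liver cancer the class is widely used as a readout of proliferation.

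Promoters are shown first because most of these genes share a pair of short elements in them, which the choice of genes did not use. RefSeq promoter windows (GRCh38.p14, 250 bases before to 50 bases after an annotated start) matched 42 of the 50 listed genes in 47 windows, since 5 genes have 2 windows each, some of which overlap. The windows shown belong to CDC20, ZWINT and KIF23, the measured genes with the smallest unadjusted p among those with both elements, from 220 bases before the start to 30 bases after it, 5′ to 3′ on the strand of the gene. Capitals mark each CHR (TTTGAA or TTTAAA, on either strand, so also TTCAAA) and each CCAAT box (CCAAT, or ATTGG on the other strand).
CDC20, chr1:43358761-43359010, plus strand: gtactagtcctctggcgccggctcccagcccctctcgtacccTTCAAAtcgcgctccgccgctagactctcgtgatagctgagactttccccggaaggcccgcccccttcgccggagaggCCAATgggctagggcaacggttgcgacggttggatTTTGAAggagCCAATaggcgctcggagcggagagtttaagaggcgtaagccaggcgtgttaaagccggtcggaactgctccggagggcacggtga
ZWINT, chr10:56361230-56361479, minus strand: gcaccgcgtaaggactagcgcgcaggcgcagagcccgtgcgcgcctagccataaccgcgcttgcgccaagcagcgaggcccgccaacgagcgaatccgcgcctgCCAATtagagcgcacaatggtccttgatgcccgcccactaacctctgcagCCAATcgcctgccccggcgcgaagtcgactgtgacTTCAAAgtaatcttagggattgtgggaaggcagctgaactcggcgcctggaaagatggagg
KIF23, chr15:69414129-69414378, plus strand: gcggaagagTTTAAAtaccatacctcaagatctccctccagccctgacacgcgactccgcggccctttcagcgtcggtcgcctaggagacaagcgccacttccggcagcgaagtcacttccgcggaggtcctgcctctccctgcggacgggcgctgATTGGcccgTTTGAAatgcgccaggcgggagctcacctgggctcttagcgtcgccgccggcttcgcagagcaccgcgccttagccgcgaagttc
In CDC20 a CHR starts at position −65 from the annotated start with CCAAT boxes at −100 and −55, and in ZWINT a CHR lies at −31 behind boxes at −116 and −66. KIF23 has a CHR at −55 directly after a box at −64. A second CHR match lies farther out in CDC20, at −178, and in KIF23, at −211.

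A CHR was found in 38 of the 47 windows of mitotic genes, or 80.9%, against 20.2% of 22199 windows of protein-coding genes and 24.0% of all 35116 windows. Counting only matches that start within 60 bases before the annotated start or after it, the share was 70.2%, against 6.41% of protein-coding windows; this limit was chosen after the matches were seen. CCAAT boxes occurred in 70.2% of the mitotic windows and in 34.7% of the protein-coding ones, and 42.6% against 11.4% held at least 2. Both elements together occurred in 57.4% of the mitotic windows and in 7.98% of the protein-coding ones. An E2F core (TTCCCGC or TTGGCGC, either strand) was found in 21.3% against 11.5%; its second form can overlap a CCAAT box on the other strand, and the CHR form TTTAAA can also be part of a TATA-like run. In the windows that held a CHR, the match nearest to the start lay a median of 24 bases from it.

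By role, all 9 kinesins, all 4 spindle assembly genes with a window, all 4 condensin genes and all 3 cytokinesis genes had a CHR in at least 1 window. CENPE, also a kinesin motor, is counted here and below with the kinetochore genes. Of the 12 kinetochore and centromere genes with a window, 8 had one; NUF2 and NDC80, which form the microtubule-binding arm of the kinetochore, are among these, while CENPI, CENPK, CENPU and SPC24 had no match. A match is a description of letters and not evidence of binding. Among measured genes with a window, the 34 with a CHR had a median difference of 0.03, with 19 higher. The 6 without had a median of −0.06, with 1 higher. These sets also differ in role, since CENPI, CENPK, CENPU and SPC24 are among the 6 and all 9 kinesins among the 34. Whether the difference goes with the CHR was not tested.

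**Figure D1:**
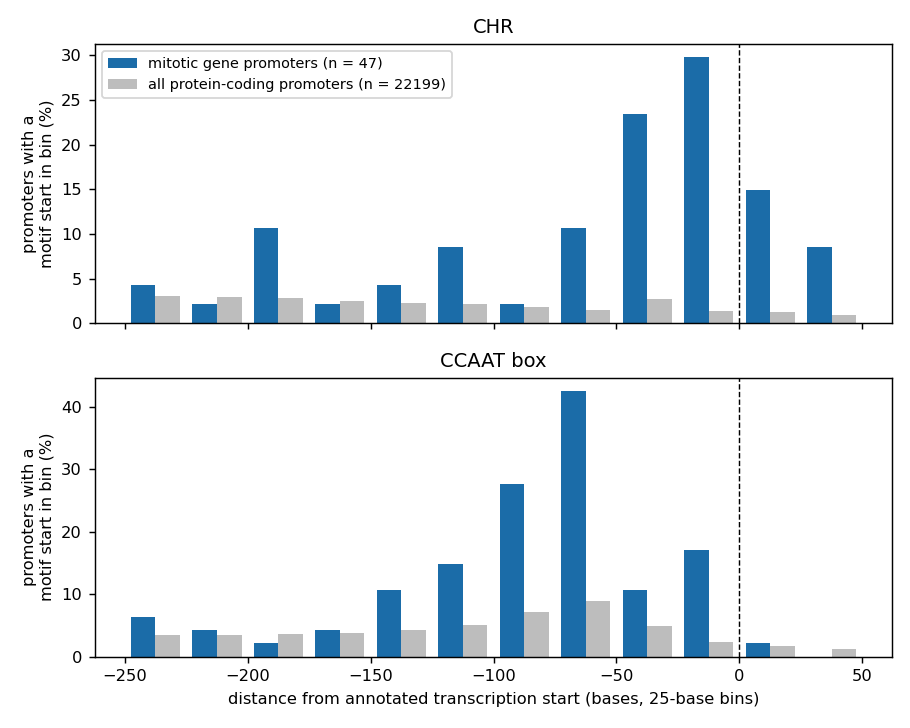
Share of promoter windows with a motif start in each 25-base bin (percent, vertical axis) against the distance from the annotated start (bases), for the 47 windows of mitotic genes (blue) and 22199 windows of protein-coding genes (grey). CHR matches of mitotic genes gather just before the start, with 29.8% of windows in the last bin before it against 1.36% of protein-coding ones, and CCAAT boxes peak at 50 to 75 bases before it, in 42.6% against 8.91%.

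As a group the mitotic genes differed little between STYK1 and control arrays, and in no common direction. Of the 48 measured genes 25 were higher, 22 lower and 1, MAD2L1, equal in the STYK1 arrays, with a median difference of 0.02, beside a median of 0.006 over the 11332 genes above the floor; with quantile normalization the median was −0.01. None passed the test: limma gave 0 genes at an adjusted p under 0.05, with a smallest adjusted p of 0.979 among them, where 1 of all 53617 probe sets, or 0.00187%, passed. At an unadjusted p under 0.05 there was 1, CDC20, or 2.08% of the 48, beside 4.64% of all probe sets and 5.44% of the genes above the floor. Differences ran from −0.32 for SMC2 to 0.33 for ASPM, folds of 1.25 and 1.26.

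The intervals still bound how far the array signal of each gene can have differed, 1 gene at a time. For all 48 genes the 95% interval of the difference lay within 1 log2 unit on either side of 0, so a 2-fold difference lay outside every interval. The same bound of 1 log2 unit held for 11075 of the 11332 genes above the floor, so it is not particular to mitotic genes. Among the 48 the lowest bound was −0.78, for SMC2, and the highest 0.77, for ASPM, which correspond to 1.71-fold lower and 1.70-fold higher. For 34 of the 48 the interval lay within 0.5 log2 units of 0, a share of 70.8% beside 67.3% of the genes above the floor. These intervals come from limma with 2 arrays a group and cover the spread between these arrays only.

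**Figure D2:**
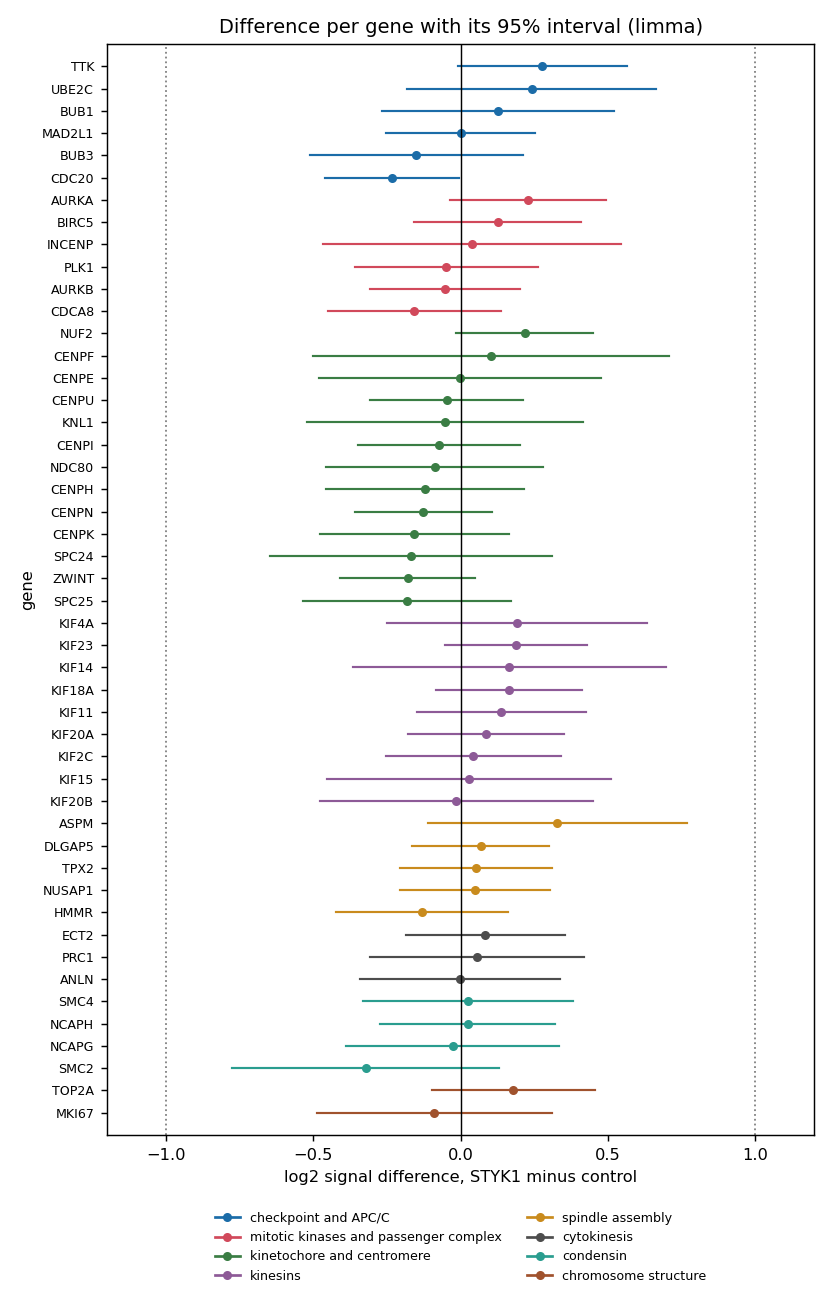
Log2 difference of each mitotic gene, STYK1 minus control (horizontal axis), as a point with its 95% interval from limma, coloured by role; dotted lines mark a 2-fold difference. Every interval stays inside the dotted lines, the interval of CDC20 alone excludes 0, 8 of 9 kinesins lie right of 0 and 11 of 13 kinetochore genes lie left of it.

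The groups did not overlap for 12 of the 48 genes, 9 higher and 3 lower. That is 18.8% higher and 6.25% lower, where 17.1% of the genes above the floor were separated upwards and 15.9% downwards. The 9 with both STYK1 arrays above both controls were TTK, AURKA, NUF2, KIF11, KIF18A, KIF23, DLGAP5, ASPM and TOP2A, and the 3 below were CDC20, CENPN and ZWINT. With 2 arrays a group the smallest p an exact two-sided permutation test can give is 0.333, and no such test was run.

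Checkpoint genes and their target split, with 3 of 6 higher, 2 lower and 1 equal and a median of 0.06. CDC20, which activates APC/C and is the protein the checkpoint holds back, read 5.96 and 5.92 in the controls against 5.74 and 5.68 with STYK1. The arrays of each group lay close together and both STYK1 arrays lay lower, a difference of −0.23 (standard error 0.09; limma, unadjusted p = 0.0458, adjusted p = 0.979). TTK, the kinase MPS1 that starts checkpoint signalling at unattached kinetochores, read 3.69 and 3.68 in the controls against 4.07 and 3.86 with STYK1. It thus leaned the other way, by 0.28 (standard error 0.11; limma, adjusted p = 0.979). UBE2C, the ubiquitin-conjugating enzyme that works with APC/C, read 2.03 and 1.64 in the controls against 1.99 and 2.16 with STYK1, so control replicate 2 stood apart below the other arrays. BUB1, a kinetochore kinase, and BUB3, its binding partner, differed by 0.13 and −0.15 with overlapping groups. MAD2L1, which binds and blocks CDC20, had the same mean in both groups, with an interval of −0.25 to 0.25.

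Mitotic kinases and the chromosomal passenger complex, which corrects faulty attachments, also split evenly, with 3 of 6 higher and a median of −0.005. AURKA, the kinase of spindle poles, read 2.41 and 2.43 in the controls against 2.74 and 2.56 with STYK1. Both STYK1 arrays lay above both controls, by 0.23 (standard error 0.10; limma, adjusted p = 0.979). AURKB, the kinase of the passenger complex, overlapped between the groups, with a difference of −0.05. Its partners did not move as one: CDCA8, or borealin, differed by −0.16, BIRC5, or survivin, by 0.13, and INCENP, the scaffold, by 0.04. CDCA8 read 4.67 and 4.49 in the controls against 4.50 and 4.35, and BIRC5 read 3.95 and 4.03 against 4.02 and 4.22. INCENP shows how wide the spread within a group could be, with 3.85 and 4.38 in the STYK1 arrays, which fall on either side of the controls at 4.12 and 4.04. PLK1, which acts from centrosome maturation to cytokinesis, read 6.74 and 6.52 in the controls against 6.65 and 6.51 with STYK1, so the groups overlapped.

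The listed kinetochore and centromere genes leaned lower, with 11 of 13 below the control mean and a median of −0.09. Over the genes above the floor, 48.2% were lower. No lean was seen in 26 other checkpoint, kinetochore and centromere genes, with 13 higher, 13 lower and a median of 0.001. None of the 13 listed genes passed, and their largest differences were under 0.25 in size. ZWINT, which links the outer kinetochore to the checkpoint, read 2.79 and 2.75 in the controls against 2.56 and 2.63 with STYK1, a difference of −0.18 (standard error 0.09; limma, adjusted p = 0.979). CENPN, which recognises the CENPA nucleosome, read 5.345 and 5.338 in the controls, almost the same, and 5.26 and 5.17 in the STYK1 arrays. For both genes the groups were separated, with the STYK1 arrays lower. NUF2 went the other way: the controls read 1.10 and 1.08, the STYK1 arrays 1.27 and 1.35, a difference of 0.22 (limma, adjusted p = 0.979). Its partners in the NDC80 complex did not follow it: NDC80 differed by −0.09, SPC24 by −0.17 and SPC25 by −0.18, each with overlapping groups.

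The inner kinetochore genes lay lower by small amounts, with CENPK at −0.16, CENPH at −0.12, CENPI at −0.07 and CENPU at −0.05. KNL1, the platform for the checkpoint proteins, differed by −0.05, and its STYK1 arrays read 2.57 and 2.09. CENPF, a large coat protein of the outer kinetochore, had the widest gap within a group of all 48 genes, with 5.12 and 4.52 in the STYK1 arrays against 4.85 and 4.58 in the controls. CENPE, the motor that carries chromosomes to the spindle equator, differed by −0.002. The median of the listed genes stayed below 0 without each array in turn, from −0.16 without control replicate 2 to −0.03 without control replicate 1. These fits reuse the same arrays, and the lists were chosen with earlier results known, so this is no independent check. Single genes were less stable. CENPE, CENPF, CENPH, CENPI, CENPU, NDC80, SPC24 and KNL1 each changed sign when 1 array or another was left out.

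The listed genes of the kinesin role leaned higher, with 8 of 9 above the control mean and a median of 0.14. CENPE, a kinesin counted with the kinetochore genes, differed by −0.002. Over the genes above the floor, 51.7% were higher. A lean of this kind was not seen in 21 other spindle and motor genes, with 10 higher, 11 lower and a median of −0.01. Most of these are not kinesins. The kinesins among them, KIF18B, KIFC1, KIF22 and KIF24, differed by 0.10, −0.08, −0.09 and −0.02. KIF23, the motor of the central spindle, read 4.76 and 4.66 in the controls against 4.93 and 4.87 with STYK1, a difference of 0.19 (standard error 0.09; limma, adjusted p = 0.979). KIF18A, which dampens chromosome movement at the spindle equator, read 3.56 and 3.61 against 3.81 and 3.68. Both genes had every STYK1 array above every control array. KIF11, which pushes the spindle poles apart, read 5.217 and 5.156 in the controls against 5.220 and 5.43 with STYK1, so its groups were separated only by the third decimal. KIF4A, a chromosome-bound motor, read 3.79 and 3.36 in the controls against 3.84 and 3.69 with STYK1, and its difference of 0.19 came with a low control replicate 2.

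Of the remaining listed kinesins, KIF14 differed by 0.17 and KIF20A, which brings the passenger complex to the midzone, by 0.09. The microtubule depolymerase KIF2C differed by 0.04, KIF15 by 0.03 (−0.02 with quantile normalization) and KIF20B by −0.01. KIF15 and KIF20B had the widest gaps between the controls in this class, 0.50 and 0.48, each with control replicate 2 lower. The median of the class stayed above 0 without each array in turn but fell to 0.05 without control replicate 2, and it was 0.21 without control replicate 1. As for the kinetochore genes, this is no independent check of the lean. Whether kinesins and kinetochore genes differed from each other in their response was not tested.

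Spindle assembly factors were higher for 4 of 5 genes, with a median of 0.05. ASPM, a spindle pole protein, had the largest difference of all 48 genes and read 5.25 and 5.06 in the controls against 5.28 and 5.69 with STYK1. Its difference of 0.33 (standard error 0.17) rested largely on STYK1 replicate 2, since STYK1 replicate 1 lay only just above control replicate 1; without replicate 2 it was 0.13 (limma, adjusted p = 0.979 with all arrays). TPX2, which activates AURKA on the spindle, read 7.13 and 7.02 in the controls against 7.07 and 7.19 with STYK1. DLGAP5, a microtubule stabiliser of the kinetochore fibres, read 4.283 and 4.19 against 4.291 and 4.32, and HMMR, a spindle-binding partner of TPX2, read 5.17 and 4.96 against 4.90 and 4.98. Both thus differed by little, at 0.07 and −0.13, and NUSAP1, which bundles spindle microtubules, differed by 0.05.

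Genes of cytokinesis lay close to 0, with differences of 0.08 for ECT2, the exchange factor that activates RhoA at the cleavage furrow, 0.06 for PRC1, which bundles the central spindle, and −0.003 for ANLN, the furrow scaffold. ECT2 read 5.37 and 5.19 in the controls against 5.33 and 5.40 with STYK1, PRC1 4.93 and 4.60 against 4.77 and 4.86, and ANLN 5.44 and 5.19 against 5.23 and 5.40. In all 3 genes control replicate 2 was the lowest array, and the STYK1 arrays overlapped control replicate 1.

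Condensin genes had a median of −0.001, which was −0.13 without control replicate 2 and 0.12 without control replicate 1. SMC2, an ATPase subunit shared by both condensins, read 4.63 and 4.28 in the controls against 3.98 and 4.29 with STYK1, so STYK1 replicate 1 was lowest, STYK1 replicate 2 equalled control replicate 2 to within 0.01, and the groups overlapped. Its difference of −0.32 (standard error 0.17) did not pass (limma, adjusted p = 0.979) and was −0.16 without STYK1 replicate 1. SMC4, its partner in the same ring, differed by 0.02, or −0.005 with quantile normalization. NCAPH, the subunit that closes the ring, read 4.06 and 3.87 against 3.92 and 4.06, and NCAPG, a HEAT-repeat subunit, read 6.74 and 6.46 against 6.48 and 6.67. TOP2A, the topoisomerase that untangles sister chromatids, read 7.23 and 7.20 in the controls against 7.30 and 7.49 with STYK1, a difference of 0.18 with separated groups. MKI67, which coats mitotic chromosomes and is the proliferation marker Ki-67, read 6.91 and 6.76 against 6.57 and 6.92, with STYK1 replicate 1 lowest and a difference of −0.09.

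**Figure D3:**
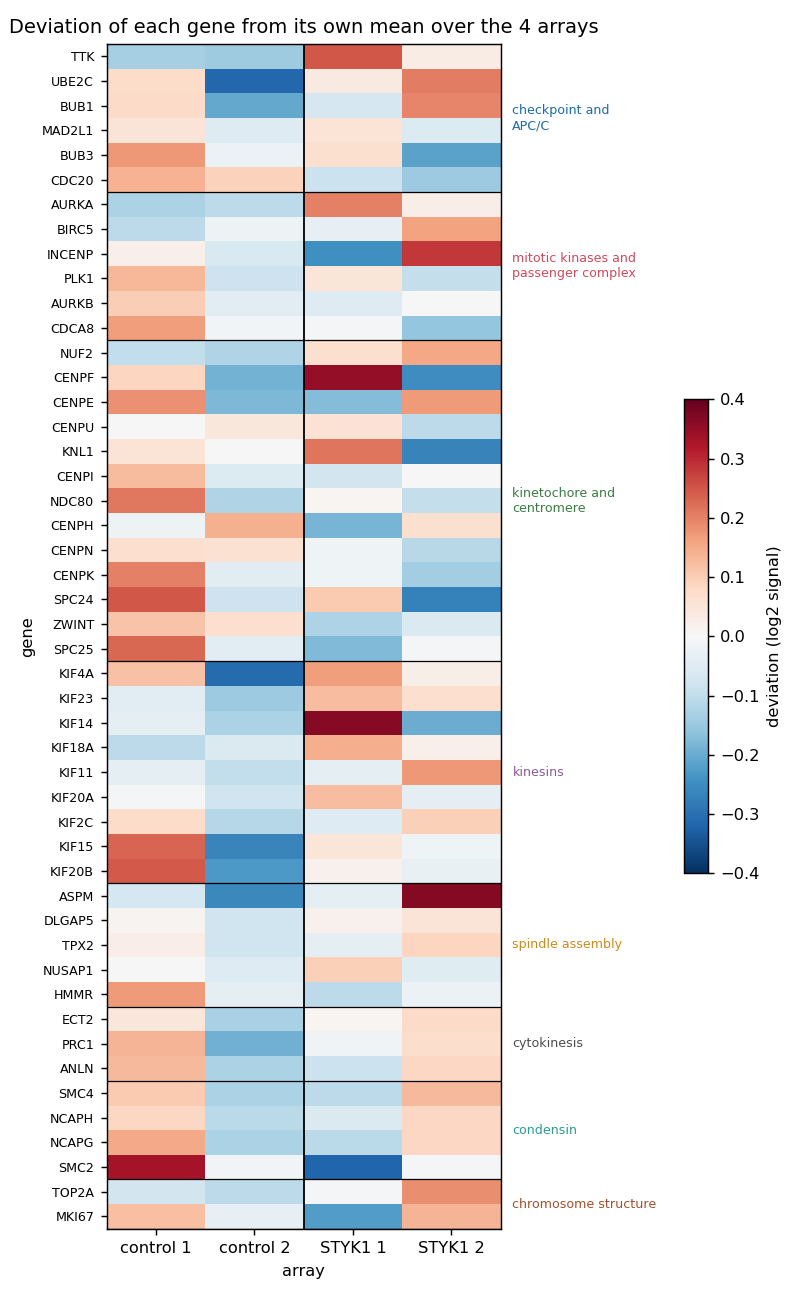
Deviation of each mitotic gene from its own mean over the 4 arrays (colour, log2 signal; red above, blue below, the scale ends at 0.4 on either side), with arrays as columns, genes as rows and roles separated by lines. The column of control replicate 2 is blue for 43 of 48 genes, while the STYK1 columns are mixed, with 26 genes below their own mean in replicate 1 and 22 in replicate 2.

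The widest common lean was not between the groups but between the control arrays. Control replicate 1 read above control replicate 2 for 43 of 48 mitotic genes, or 89.6%, with a median gap of 0.18, whereas 47.7% of the genes above the floor did so, with a median gap of −0.01. Control replicate 2 was the lowest of the 4 arrays for 24 of the 48 genes, beside 22.4% of the genes above the floor, and the highest for 1, CENPH. For 33 of the 48 genes, or 68.8%, the gap between the controls was wider than the difference between the groups, beside 60.3% of the genes above the floor. A gap between 2 single arrays varies more than a difference between means of 2 arrays, so nothing is read from this count. Between the STYK1 arrays no such lean was seen, with replicate 1 above replicate 2 for 22 of 48 genes and a median gap of −0.06.

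With such a gap, leaving out 1 control array has to move the group median, so the values without each are no separate result. Without control replicate 1 the median over the 48 genes was 0.11, with 34 higher, and without control replicate 2 it was −0.06, with 14 higher. Nothing in the labels tells the control samples apart, and what sets them apart was not tested. Averaged over the 48 genes, the deviation from the gene mean was 0.07 and −0.09 in control replicates 1 and 2 and 0.002 and 0.01 in the STYK1 arrays, so both STYK1 arrays lay between the controls.

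**Figure D4:**
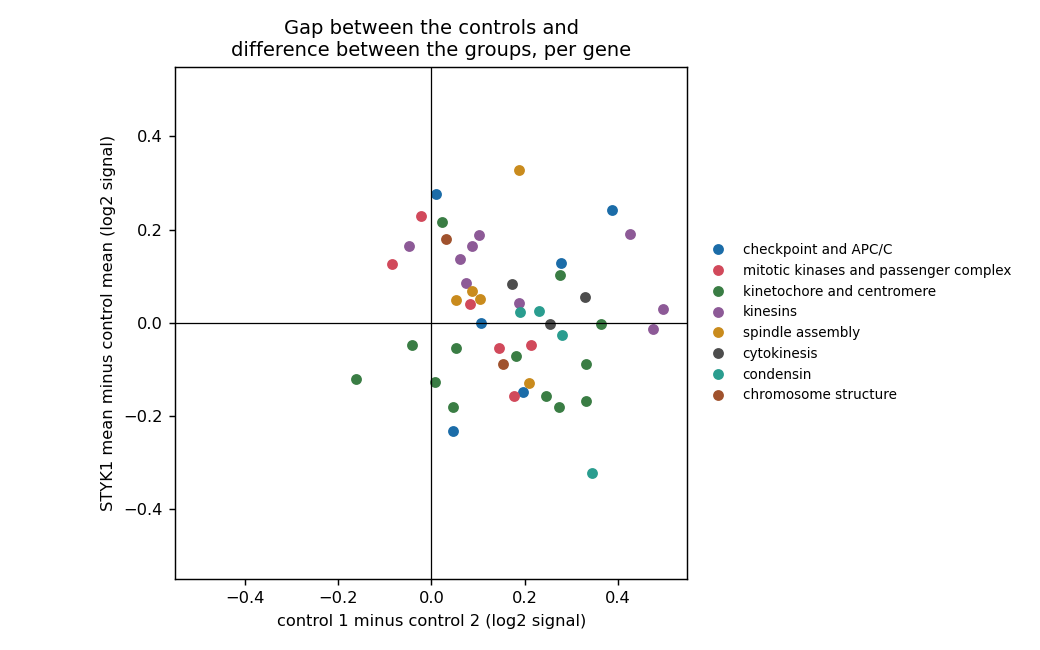
For each mitotic gene, the gap between the control arrays (control replicate 1 minus control replicate 2, log2 signal, horizontal axis) against the difference between the groups (STYK1 mean minus control mean, log2 signal, vertical axis), coloured by role. Of the 48 points 43 lie right of 0, whereas 25 lie above, 22 below and 1 on 0; both axes use the same control arrays, so no relation is read from the plot.

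Every role averaged above its mean in control replicate 1 and below it in control replicate 2. Kinesins averaged −0.16 in control replicate 2 and 0.10 in STYK1 replicate 1. Kinetochore genes averaged 0.11 in control replicate 1 and −0.07 in STYK1 replicate 2, the lowest array for 6 of the 13. Condensin genes averaged −0.15 in STYK1 replicate 1 and 0.17 in control replicate 1. 

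**Figure D5:**
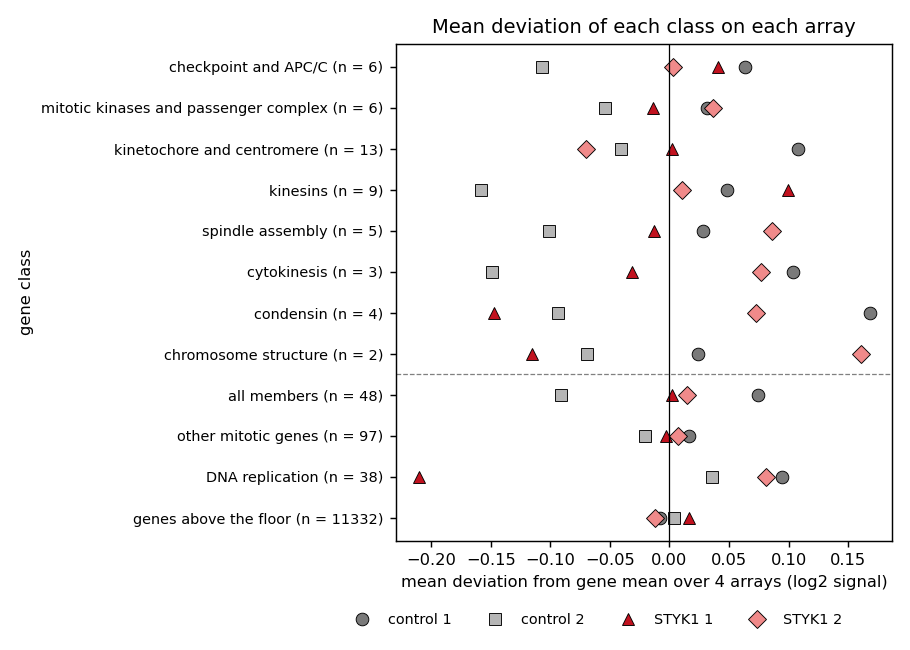
Mean deviation from each gene's own mean over the 4 arrays (log2 signal, horizontal axis) for each role and for comparison lists (rows, with the number of measured genes), 1 marker per array: grey for controls, red for STYK1. Over all 48 mitotic genes the STYK1 markers, at 0.002 and 0.01, lie between the controls at −0.09 and 0.07, whereas for DNA replication genes STYK1 replicate 1 lies far left at −0.21.

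Other genes of the pathway, 101 listed by role and 97 measured, also had a median near 0, but with a smaller gap between the controls. Of these 45 were higher and 52 lower, with a median of −0.02, and limma gave 0 at an adjusted p under 0.05 and 2 at an unadjusted p under 0.05, or 2.06%, beside 4.64% of all probe sets and 5.44% of the genes above the floor. LIN54, the DNA-binding subunit that recognises the CHR, read 4.387 and 4.386 in the controls against 4.05 and 4.05 with STYK1, a difference of −0.34 (standard error 0.08; limma, unadjusted p = 0.011, adjusted p = 0.979). ANAPC4, a subunit of APC/C, read 1.764 and 1.765 against 1.99 and 2.01, a difference of 0.24 (limma, unadjusted p = 0.038, adjusted p = 0.979). HASPIN, the kinase that recruits the passenger complex to centromeres, differed by −0.25, and TROAP, a spindle-associated protein, by 0.20, each with separated groups. Of the 20 genes of mitotic entry and G2/M transcription 10 were higher and 10 lower; cyclin B1, CCNB1, differed by 0.01, its kinase CDK1 by −0.05 and the transcription factor FOXM1 by 0.01 (−0.005 with quantile normalization), all with overlapping groups. Control replicate 1 read above control replicate 2 for 56 of the 97, with a median gap of 0.02.

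Genes of DNA replication, which act earlier in the cell cycle, are the nearest comparison outside mitosis, with 39 listed and 38 measured. Of these 11 were higher and 27 lower, with a median of −0.11, and STYK1 replicate 1 was the lowest array for 25 of 38, against 9 of 48 for the mitotic genes. Whether the 2 sets differ was not tested.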

How the data were processed

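RNA of the 4 Huh7 samples was extracted with an RNeasy kit, amplified and turned into labelled cDNA for Affymetrix arrays, per the labels' protocols. What the authors deposited is a single table of log2 signals, 53617 probe sets by 4 arrays; the log base was inferred from the values, which reach 11.3. Per the submitters' processing notes the software was the Transcriptome Analysis Console; how signals were summarized and normalized is not stated there. Array medians were 0.615 to 0.629, and no further normalization was applied. The number of arrays limits the precision, with a median standard error of a difference of 0.11.

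Probe sets with exactly 1 symbol (23871) were named from the platform annotation, with 90 symbols updated through RefSeq (GRCh38.p14); 1842 had several symbols and 27904 none here. Groups follow the titles. The fit used limma 3.58.1 in R 4.3.3, with lmFit on group as its single term and eBayes, two-sided, Benjamini-Hochberg over all probe sets, threshold 0.05. The intervals and p-values use limma's moderated standard errors with 4.71 degrees of freedom, 2 residual and 2.71 prior. Part of each variance is thus drawn from all probe sets, so a standard error can exceed the spread of the gene's own arrays. The fit was tested on simulated data. Genes above the floor are the 11332 named genes whose mean exceeds 0.753.

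The genes, lists, roles and the floor were chosen with earlier results of these data known. In each role the 3 genes with the smallest p, the highest mean and the largest difference are given with every array. Other mitotic genes named are the 4 with the smallest p, CCNB1, CDK1 and FOXM1. Promoters are RefSeq windows, and motifs were searched as exact letters. Alternatives were trended or robust variance, quantile or median scaling, a filter at the floor, 1 probe set per gene, the mean over a gene's probe sets, a replicate block and leaving out each array. The labels do not say that a number marks a shared culture, day or batch, so the numbers were not taken as pairs. Same-numbered arrays deviated with a correlation of −0.044 over all probe sets, which cannot decide whether they were paired.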

Additional observations from a re-analysis of the deposited data

How the results depend on the processing

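Under all 12 alternatives 0 of the 48 mitotic genes passed the adjusted threshold (limma), and the adjusted p-values ran from 0.956 to 1. The count at an unadjusted p under 0.05 was 0 with an intensity trend, 0 among probe sets above the floor, 2 with 1 probe set per named gene, 0 with the replicate block and 0 to 2 without 1 array. For the other mitotic genes 0 passed throughout, and that count was 0, 1 and 1 with the trend, the floor and the replicate block and 2 to 6 without 1 array; their median was −0.045 with quantile normalization. The block left 1 residual degree of freedom, nothing in the labels pairs the numbers, and the difference in STYK1 was then 7.19 with an adjusted p of 0.0637. Without 1 array the STYK1 difference was 6.96 to 7.42 and did not pass. For all of these the cause was not tested. Where 1 array was left out, the lone array of a group was assumed to vary like the other group.

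Without 1 array the median over the 48 genes was −0.062 to 0.11, the number higher 14 to 34, and the medians were −0.032 to 0.16 for checkpoint genes, −0.064 to 0.070 for kinases and the passenger complex, 0.049 to 0.21 for kinesins, −0.11 to 0.17 for cytokinesis, −0.13 to 0.12 for condensin, 0.022 to 0.10 for spindle assembly and −0.025 to 0.026 for the other mitotic genes. Of the 48 genes 21 kept their direction in every alternative, and MAD2L1, with equal means, had none. Rescaling turned KIF15 to −0.021, SMC4 to −0.0050 and FOXM1 to −0.0046 with quantile normalization. Leaving out 1 array turned 26 of the 48 genes and 3 of the 7 other genes named, with differences of BUB1 −0.012 to 0.27, PLK1 −0.16 to 0.058, AURKB −0.13 to 0.019, INCENP −0.22 to 0.30, CENPE −0.18 to 0.18, CENPF −0.20 to 0.40, CENPH −0.25 to 0.0033, CENPI −0.16 to 0.019, CENPU −0.13 to 0.033, NDC80 −0.25 to 0.077, SPC24 −0.35 to 0.019, KNL1 −0.29 to 0.19, KIF14 −0.11 to 0.45, KIF15 −0.22 to 0.28, KIF20B −0.25 to 0.22, KIF2C −0.051 to 0.14, KIF4A −0.022 to 0.40, TPX2 −0.0091 to 0.11, NUSAP1 −0.023 to 0.12, PRC1 −0.11 to 0.22, ANLN −0.13 to 0.12, ECT2 −0.0037 to 0.17, SMC4 −0.093 to 0.14, NCAPG −0.17 to 0.11, NCAPH −0.072 to 0.12, MKI67 −0.27 to 0.090, CCNB1 −0.030 to 0.052, CDK1 −0.14 to 0.049 and FOXM1 −0.17 to 0.20.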
